A study of Mus musculus with 241 samples.

Results

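Egfl7, Adgrl4, Emp1 and Sema3d are 4 genes best known from blood vessels or other solid tissue, and all 4 were expressed by the earliest T-cell progenitors of the mouse thymus. They were chosen by their level in the bulk libraries (FPKM, scaled to gene length), since each was higher in early thymic progenitors (ETP) than in the next stage, DN2a, in these data. That difference is therefore described below and not tested. The 4 genes are 4 of 24506 genes in the bulk table, 4 of 27998 in each droplet (10x) library and 4 of 43346 in the table of cells captured on the C1 chip, which lists Adgrl4 under its older symbol Eltd1.

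All cells were taken from the thymus of C57BL/6 mice, without treatment, and sorted as live, lineage-negative CD44+ Kit+ cells. Their age, and whether mice were pooled, are not given in the sources used here. Bulk RNA came from mice whose genotype is given as Bcl11byfp/yfp, in which YFP reports the gene Bcl11b. The 5 bulk populations were Flt3+ ETP (CD25-, 2 libraries), Flt3- ETP (CD25-, 2), total ETP not divided by Flt3 (2), Bcl11b- DN2a (CD25+ YFP-, 3) and Bcl11b+ DN2a (CD25+ YFP+, 3). The single cells came from WT mice and the whole CD44+ Kit+ gate, as 2 droplet libraries and the C1 cells, so that ETP and DN2a cells lay in the same libraries.

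ETPs are the first cells to settle in the thymus from the blood. They still hold much of the expression programme of blood stem and progenitor cells, and they take up CD25, encoded by Il2ra, as Notch signals carry them into DN2a. Bcl11b is switched on within DN2a and accompanies commitment to the T lineage. Endothelium and blood stem cells arise from related embryonic precursors and share several regulators and surface proteins.

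Of the secreted products, Egfl7 encodes an EGF-domain protein that endothelium deposits in its matrix, and its locus carries the microRNA miR-126. Sema3d encodes a class 3 semaphorin, a guidance ligand received by neuropilins and plexins. Of the membrane proteins, Adgrl4 (also called ELTD1) is an orphan adhesion G-protein-coupled receptor of endothelium. Emp1 is a membrane protein with 4 spans, of the PMP22 family, found in epithelia and other tissues.

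The promoters of the 4 genes are shown because the genes were chosen as a set that is high in ETP. Each runs over 300 bases from 250 before to 50 after the RefSeq start site, on the plus strand of GRCm38.p6, and capitals mark matches to the E-box CANNTG, the motif bound by E proteins and other basic helix-loop-helix factors.
Egfl7, chr2:26586386-26586685: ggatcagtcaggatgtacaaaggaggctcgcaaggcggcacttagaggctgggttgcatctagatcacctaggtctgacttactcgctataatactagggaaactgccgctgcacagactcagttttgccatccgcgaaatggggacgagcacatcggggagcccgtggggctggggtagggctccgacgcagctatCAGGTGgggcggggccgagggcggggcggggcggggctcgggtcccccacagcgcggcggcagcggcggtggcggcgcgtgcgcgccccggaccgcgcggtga
Sema3d, chr5:12382916-12383215: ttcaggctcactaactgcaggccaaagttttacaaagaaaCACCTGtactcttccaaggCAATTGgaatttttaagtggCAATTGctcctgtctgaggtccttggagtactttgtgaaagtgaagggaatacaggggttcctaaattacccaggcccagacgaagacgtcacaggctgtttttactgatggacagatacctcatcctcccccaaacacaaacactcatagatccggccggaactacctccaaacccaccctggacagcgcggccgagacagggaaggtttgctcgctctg
Adgrl4, chr3:151437632-151437931: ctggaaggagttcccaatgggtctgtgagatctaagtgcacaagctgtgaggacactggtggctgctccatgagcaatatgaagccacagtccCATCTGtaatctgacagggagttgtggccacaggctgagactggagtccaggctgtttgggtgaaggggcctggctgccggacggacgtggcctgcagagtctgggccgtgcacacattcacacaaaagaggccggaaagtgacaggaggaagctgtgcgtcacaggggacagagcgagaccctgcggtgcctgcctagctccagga
Emp1, chr6:135362681-135362980: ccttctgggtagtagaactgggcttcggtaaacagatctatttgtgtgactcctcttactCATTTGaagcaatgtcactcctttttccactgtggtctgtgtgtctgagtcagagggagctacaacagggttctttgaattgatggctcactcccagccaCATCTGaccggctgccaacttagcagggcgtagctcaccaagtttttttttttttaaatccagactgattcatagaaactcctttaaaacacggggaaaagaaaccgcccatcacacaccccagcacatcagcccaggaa
Their base composition differed widely. The Egfl7 promoter was 67.3% G or C with 31 CG pairs, against a median of 52.7% and 7 pairs over 32851 RefSeq promoters of this length, whereas Adgrl4 had 58.7% and 8 pairs, Sema3d 49.7% and 8 pairs, and Emp1 46.7% and 5 pairs. The E-box reads the same on both strands, so each match counts once, and 72.31% of all promoters hold at least 1. There was 1 match at Egfl7 (from base -53 of the start site), 1 at Adgrl4 (from -157), 2 at Emp1 (from -190 and -90) and 3 at Sema3d (from -210, -191 and -171). The ETS-type motif GGAAGT, held by 23.77% of all promoters on either strand, was not found in these windows. Neither was a GATA-type motif, GATAA, which 25.41% hold. For Egfl7, with 3 listed promoters, and Emp1, with 2, the window nearest the bulk gene model was used.

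A microRNA lies within Egfl7, and its mature 3-prime arm is shown because it would share the host's transcript, with its seed, bases 2 to 8, in capitals.
mmu-miR-126a-3p, chr2:26591402-26591423: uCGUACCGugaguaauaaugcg
The bulk table lists the precursor Mir126a at 0 in most libraries and at no more than 2.88 FPKM, and Mir126b at no more than 0.548 FPKM. These libraries do not measure mature microRNAs. In mm10 the bulk model of Egfl7 spans chromosome 2, 26586630 to 26592682, and overlaps Gm20532, Mir126a and, on the minus strand, Mir126b. Sema3d (chromosome 5, 12383166 to 12588943) overlaps the pseudogene Gm8925 on the minus strand and Gm42909. Adgrl4 (chromosome 3, 151437882 to 151545081) and Emp1 (chromosome 6, 135362931 to 135383173) overlap no other annotated gene. Since the strand setting of the authors' counting is not given, reads of overlapping genes cannot be told apart.

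The 12 bulk libraries hold 21152851 to 38433873 reads on gene models, as recovered from the deposited FPKM (reads per kilobase of gene model, scaled to the size of the library). The droplet libraries hold 43734920 and 55522900 UMIs, that is, counted molecules, of which 4878 and 8434 cells were kept. The gate genes followed the sorts. Flt3 was at 19.3 to 24.9 FPKM in Flt3- ETP, against 61.9 to 78.5 FPKM in Flt3+ ETP. Il2ra was at 183.6 to 300.8 FPKM in DN2a, against 1.022 to 18.4 FPKM in ETP. Bcl11b was at 16.1 to 44.3 FPKM in Bcl11b+ DN2a, against 0.596 to 6.11 FPKM in Bcl11b- DN2a. Bulk libraries fall into 3 series of neighbouring library numbers in the labels. Series A holds replicate 1 of the Flt3 and DN2a sorts, series B total ETP and replicate 2 of DN2a, and series C the libraries made from amplified cDNA with SMART-Seq v4, whereas A and B were made with NEBNext Ultra. Series A also stands apart by collagen transcripts, which mark mesenchymal cells. Col1a2 was at 6.66 to 10.2 FPKM in its DN2a libraries and 20.4 to 24.7 FPKM in its ETP libraries, against 0.005 FPKM or less in every library of the other series, and Col1a1 and Col3a1 followed the same division.

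Egfl7 was the most abundant of the 4 genes per length in every bulk library except replicate 2 of Bcl11b+ DN2a, where Emp1 stood above it. In ETP it was at 155.6 and 116.3 FPKM in Flt3+, 107.1 and 83.2 FPKM in Flt3- and 69.2 and 51.0 FPKM in total ETP. In DN2a it was at 24.8, 20.9 and 26.9 FPKM in Bcl11b- and 15.1, 9.09 and 15.7 FPKM in Bcl11b+ cells. No 2 of the 5 populations overlapped, and the Bcl11b+ libraries, the lowest, still held 406 to 929 reads of Egfl7. Over the stages, Egfl7 averaged 18.7 ± 6.68 FPKM in DN2a and 97.04 ± 37.4 FPKM in ETP (SD, n = 6 libraries each). Total ETP lay below both of its Flt3 fractions, but it was made only in series B, which holds no Flt3 sort, so population and series cannot be told apart there. In bulk samples, fewer cells expressing a gene and less RNA of it per cell cannot be told apart either.

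Sema3d was the least abundant and the one nearest to complete loss. It was at 3.17 and 3.32 FPKM in Flt3+ ETP, 0.992 and 1.017 FPKM in Flt3- ETP and 5.75 and 5.23 FPKM in total ETP, from 279 to 1193 reads. In Bcl11b- DN2a it was at 0.031, 0.224 and 0.003 FPKM, or 9, 52 and 1 reads, and in Bcl11b+ DN2a at 0.003, 0.028 and 0 FPKM, or 1, 7 and 0 reads. The library with no read allows up to 0.0104 FPKM, the level of 3 reads. Here total ETP stood above both Flt3 fractions, the reverse of Egfl7, and the 3 ETP populations did not overlap, whereas the DN2a fractions did. Sema3d averaged 0.0482 ± 0.0872 FPKM in DN2a and 3.25 ± 2.01 FPKM in ETP (SD, n = 6 each).

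Adgrl4 had the widest ratio of highest to lowest ETP library of the 4 genes. It was at 17.6 and 55.9 FPKM in Flt3+ ETP, 7.14 and 29.1 FPKM in Flt3- ETP and 26.8 and 29.6 FPKM in total ETP, then at 2.22, 4.79 and 5.66 FPKM in Bcl11b- DN2a and 0.096, 0.435 and 1.06 FPKM in Bcl11b+ DN2a. The last value of each Flt3 and DN2a sort is the SMART-Seq library, which was the highest of its population for Adgrl4, and the 3 ETP populations overlapped. Both DN2a fractions lay below all ETP libraries and did not overlap each other. Adgrl4 averaged 2.38 ± 2.34 FPKM in DN2a and 27.7 ± 16.3 FPKM in ETP (SD, n = 6 each).

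Emp1 was at 46.01 and 26.9 FPKM in Flt3+ ETP, 25.8 and 15.1 FPKM in Flt3- ETP and 38.7 and 40.8 FPKM in total ETP. It was at 6.10, 8.38 and 4.34 FPKM in Bcl11b- DN2a and 9.91, 10.95 and 4.56 FPKM in Bcl11b+ DN2a. The DN2a fractions overlapped, as did total ETP with Flt3+ ETP. The SMART-Seq library was the lowest of each sorted population, the reverse of Adgrl4. Emp1 averaged 7.37 ± 2.79 FPKM in DN2a and 32.2 ± 11.6 FPKM in ETP (SD, n = 6 each).

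**Figure D1:**
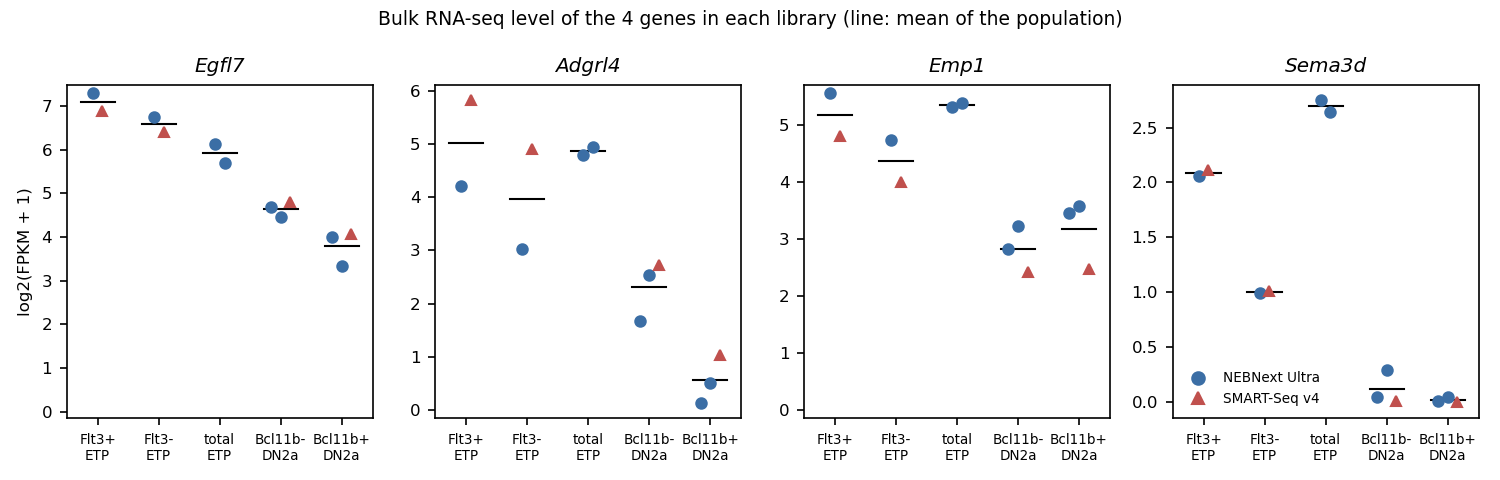
Level of each gene in each bulk library (FPKM, log axis) in the 5 populations in the order of development, with the library kit marked; the bar is the mean. Every ETP library lies above every DN2a library for each gene, and Sema3d lies at or below 0.224 FPKM in all DN2a libraries.

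The differences that chose the genes were of unlike size. On the log2(FPKM + 1) scale, with the kit as a term of the fit, DN2a minus ETP was -3.18 for Adgrl4, -2.30 for Egfl7, -1.97 for Emp1 and -1.86 for Sema3d. Their median of -2.14 stood beside 0.03 over the 12112 genes tested. The added 1 FPKM holds back low genes most, and with 0.1 in its place Sema3d was at -4.36 and Adgrl4 at -4.05, and the median of the 4 at -3.21. Without series A the 4 genes were at -3.43 for Adgrl4, -2.14 for Egfl7, -1.95 for Emp1 and -1.88 for Sema3d. Within each of the 3 library-number series the mean of the DN2a libraries lay below that of the ETP libraries for all 4 genes.

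Flt3 marks the earliest ETPs, and the Flt3 sorts ask whether the genes already decline before CD25 appears. This contrast was not used to choose them. All 4 genes were lower in Flt3- than in Flt3+ ETP in both series that hold the sorts, but 1 of the 4 passed the test, Sema3d, at an adjusted p under 0.05 over all genes. The background is 0.685% of 12112 genes called in either direction and 0.264% called lower. The median over all genes was -0.15 on the log2 scale, so the values below include a general shift of that size.

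Sema3d fell by 1.08 ± 0.19 on the log2 scale in Flt3- ETP (SE, 2 libraries against 2, limma adjusted p = 0.0261). Its FPKM ratio of Flt3+ over Flt3- was 3.198 in series A and 3.26 in series C. Emp1 differed by -0.80 ± 0.17 (adjusted p = 0.0742), with FPKM ratios of 1.78 and 1.79. Adgrl4 differed by -1.05 ± 0.35 (adjusted p = 0.195), with ratios of 2.46 and 1.92, and Egfl7 by -0.51 ± 0.27 (adjusted p = 0.338), with ratios of 1.45 and 1.40. The 95% intervals without adjustment ran from -1.09 to 0.08 for Egfl7 and from -1.81 to -0.30 for Adgrl4, so at 2 libraries a group the test leaves a wide range for both. The Sema3d call was lost when replicate 1 of Flt3- ETP (adjusted p = 0.215), replicate 1 of Flt3+ ETP (0.119) or replicate 2 of Flt3+ ETP (0.205) was left out, and in limma with a pseudocount of 0.1 (0.202), quantile normalization (0.0839), no kit term (0.298), NEBNext libraries only (0.135) or the replicate number as a block (0.156). It was also lost with edgeR on the recovered reads (adjusted p = 0.397). Without series A, which leaves 1 library a group, each assumed to vary like the other groups, Sema3d (limma adjusted p = 0.0183), Emp1 (0.0176) and Adgrl4 (0.0138) passed, at -1.10, -0.80 and -0.92, and Egfl7 did not (-0.48, 0.203). Nothing ties the libraries to separate mice, so all p-values measure the spread between libraries.

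Markers of other cells moved with this contrast. Of 10 myeloid genes, 8 were tested and 6 rose in Flt3- ETP, led by Elane, a neutrophil elastase, at 6.20 ± 0.40 on the log2 scale (limma adjusted p = 5.86e-05), Prtn3 at 4.15 ± 0.33, Ly6c2 at 3.17 ± 0.26 and S100a8 at 4.13 ± 0.38. Of 9 erythroid and mast-cell genes 3 rose, Cpa3 by 2.67 ± 0.21, Mcpt8 by 2.64 ± 0.31 and Ms4a2 by 1.38 ± 0.22. Summed over the list, the myeloid genes were at 15.4 to 52.5 FPKM in DN2a and 105.7 to 997.1 FPKM in ETP libraries. The part of such cells in the lower values of the 4 genes in Flt3- ETP was not tested in the bulk libraries.

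In DN2a, Adgrl4 fell as Bcl11b came on. Of the genes that did not pass the test, Egfl7 had lower values in all 3 series and Emp1 higher values in all 3, and differences between genes were not tested. Adgrl4 is thus 1 of 4 members called, and the background is 2.79% of genes called in either direction and 1.64% called lower and 1.15% called higher, with a median of -0.04 over all genes.

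Adgrl4 fell by 1.75 ± 0.28 on the log2 scale in Bcl11b+ DN2a (SE, 3 libraries against 3, limma adjusted p = 0.00644). It was lower in 3 of 3 series, with ratios of Bcl11b- over Bcl11b+ of 23.1, 11.02 and 5.33 from at least 21 reads in each Bcl11b+ library. Egfl7 differed by -0.84 ± 0.22 (adjusted p = 0.0722) and had ratios of 1.64, 2.30 and 1.71 in its 3 series. Emp1 differed by 0.34 ± 0.14 (adjusted p = 0.366, 95% interval 0.03 to 0.66). Sema3d differed by -0.10 ± 0.15 (adjusted p = 0.999), from at most 52 reads a library. Same-numbered DN2a libraries varied together, and with the replicate number as a block the Adgrl4 call was lost (limma adjusted p = 0.132), while when the series of library numbers was the block both Adgrl4 (0.000140) and Egfl7 (0.00469) passed. The replicate number follows the series in DN2a but mixes series among ETP libraries, which share the fit. The Adgrl4 call held without any 1 DN2a library (0.00452 to 0.0412) but was lost with no filter on low genes (0.112), with no kit term (1) and with NEBNext libraries only (0.0884). Without series A, Adgrl4 (-1.85, limma adjusted p = 3.36e-06) and Egfl7 (-0.93, 0.00167) passed and Emp1 (0.20, 0.304) and Sema3d (-0.13, 0.696) did not.

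**Figure D2:**
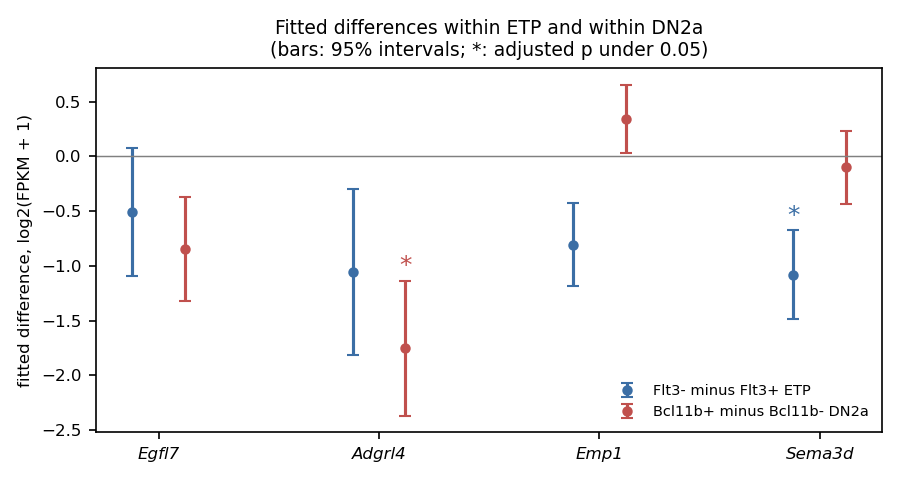
Fitted difference of each gene on the log2 scale with its 95% interval, in bulk for Flt3- minus Flt3+ ETP and for Bcl11b+ minus Bcl11b- DN2a. An asterisk marks a difference that passed the test. Values below 0 are lower in the later stage, and Emp1 at 0.34 in DN2a is the one value above 0.

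The droplet cells placed each gene along the same path without a sort. These libraries were not used to choose the genes, but the classes ask much the same question as the choice did, so the direction here is no independent support for it. A cell was called Il2ra+ where it held at least 1 Il2ra UMI, and the summed counts of Il2ra+ and Il2ra- cells were compared within the 2 libraries. All 4 genes were lower in Il2ra+ cells in both libraries and passed the test, beside a background of 39.3% of 12171 genes called in either direction and 20.4% called lower.

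Egfl7 was at 65.98 and 77.2 CPM, that is, its UMIs scaled to the total of the class, in Il2ra+ cells, against 203.4 and 268.8 CPM in Il2ra- cells. Adgrl4 was at 4.48 and 4.86 CPM in Il2ra+ cells, against 21.95 and 22.5 CPM in Il2ra- cells. Emp1 was at 7.54 and 8.90 CPM in Il2ra+ cells, against 19.1 and 26.1 CPM in Il2ra- cells. The groups did not overlap for any of these genes. Sema3d was at 0.787 and 0.576 CPM in Il2ra+ cells, from 19 and 16 UMIs, against 5.46 and 4.54 CPM in Il2ra- cells.

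The log2 differences were -2.94 ± 0.23 for Sema3d, -2.31 ± 0.10 for Adgrl4, -1.79 ± 0.04 for Egfl7 and -1.53 ± 0.08 for Emp1 (SE, 2 libraries, edgeR). Their order of size, with Sema3d first and Emp1 last, held in both libraries taken singly. In this fit the spread left over per gene rested on 1 degree of freedom and edgeR found no extra spread between genes, so its p-values rest on counting error and a spread shared by all genes. With all deposited barcodes, edgeR gave the shared spread a weight of 13.7 degrees of freedom, against 1 for each gene's own. The edgeR adjusted p-values there were 1.48e-13 for Egfl7, 3.20e-11 for Adgrl4, 7.33e-10 for Emp1 and 4.81e-08 for Sema3d. They too rest mostly on the shared spread. The libraries share 57 cell barcodes, and doublets were not removed.

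When the cells were divided further by Flt3 and Bcl11b UMIs, each gene was highest in Flt3+ Il2ra- cells. Egfl7 was at 283.2 and 369.5 CPM in Flt3+ Il2ra- cells, 178.7 and 248.3 CPM in Flt3- Il2ra- cells, 83.1 and 99.4 CPM in Il2ra+ Bcl11b- cells and 45.6 and 53.03 CPM in Il2ra+ Bcl11b+ cells. Adgrl4 was at 32.6 and 36.7 CPM in Flt3+ Il2ra-, 18.7 and 19.6 CPM in Flt3- Il2ra-, 6.86 and 7.39 CPM in Il2ra+ Bcl11b- and 1.64 and 2.11 CPM in Il2ra+ Bcl11b+ cells. For both, no counting interval of a class met that of the next. Within Il2ra+ cells Adgrl4 was thus again lower where Bcl11b was detected, as in the bulk sorts.

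Sema3d was at 7.26 and 7.26 CPM in Flt3+ Il2ra-, 4.90 and 3.99 CPM in Flt3- Il2ra-, 0.914 and 0.691 CPM in Il2ra+ Bcl11b- and 0.636 and 0.451 CPM in Il2ra+ Bcl11b+ cells. The main step lay at the appearance of Il2ra, and the Il2ra+ classes, with 6 to 12 UMIs each, could not be told apart at this depth. Emp1 was at 26.2 and 32.6 CPM in Flt3+ Il2ra-, 16.9 and 24.8 CPM in Flt3- Il2ra-, 8.31 and 9.33 CPM in Il2ra+ Bcl11b- and 6.63 and 8.42 CPM in Il2ra+ Bcl11b+ cells. Its Il2ra+ classes also had overlapping intervals, so these counts cannot decide on the small excess of Emp1 in Bcl11b+ cells of the bulk sorts. Absence of a UMI depends on depth, and thinning to 4000 UMIs per cell kept 4628 and 6978 cells. Egfl7 was then at 299.3 and 384.4 CPM in Flt3+ Il2ra- and 164.6 and 234.9 CPM in Flt3- Il2ra- cells. It was at 71.3 and 85.8 CPM in Il2ra+ Bcl11b- and 34.6 and 45.3 CPM in Il2ra+ Bcl11b+ cells. Thinned Emp1 was at 7.11 and 8.72 CPM in Il2ra+ Bcl11b- and 5.26 and 9.01 CPM in Il2ra+ Bcl11b+ cells. The libraries thus differed in direction for Emp1.

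**Figure D3:**
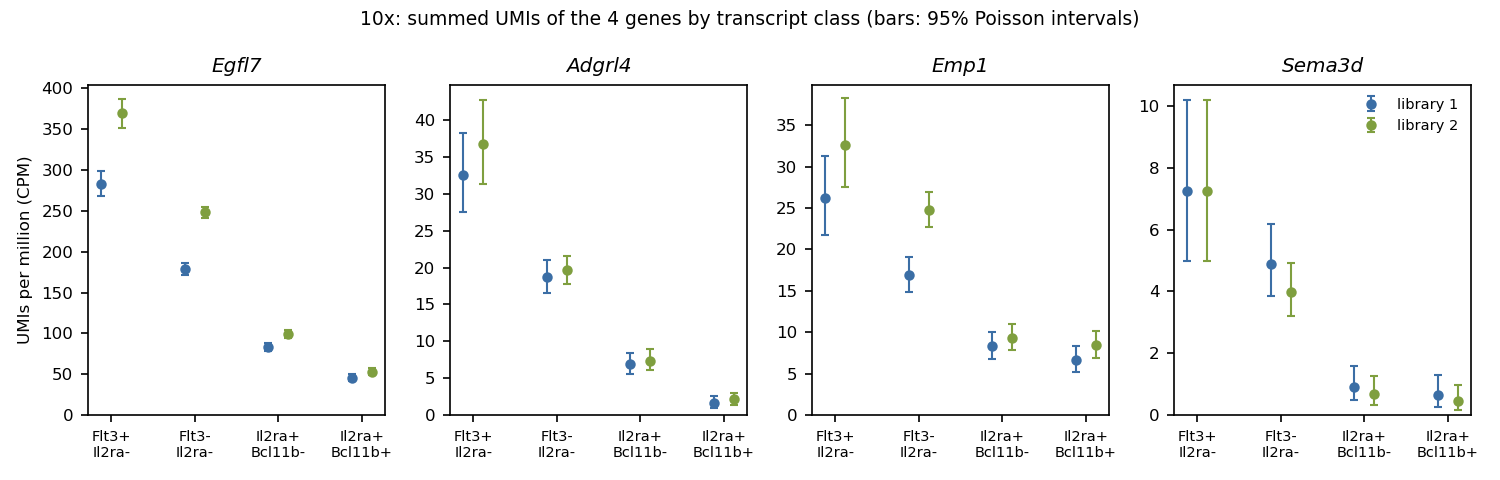
Level of each gene (CPM, linear axis, with exact 95% Poisson intervals) in 4 classes of droplet cells, for both libraries, in the order Flt3+ Il2ra-, Flt3- Il2ra-, Il2ra+ Bcl11b-, Il2ra+ Bcl11b+. All 4 genes are highest in the first class; Egfl7 and Adgrl4 step down at every class, while Emp1 and Sema3d step down chiefly where Il2ra appears.

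The genes differed in how many cells carried them. In Flt3+ Il2ra- cells an Egfl7 UMI was found in 86.6% and 84.9% of cells, an Adgrl4 UMI in 24.2% and 21.8%, an Emp1 UMI in 22.6% and 17.8% and a Sema3d UMI in 6.94% and 5.05%, at median depths of 9892 and 6709.5 UMIs. In a cluster of Cd3d+ Ptcra+ cells past commitment, Egfl7 was found in 6.67% and 5.47% of cells and Sema3d in 0.333% of cells and in 0 of 622 cells, which allows a share of up to 0.482%, at a lower median depth of 3388 UMIs over both libraries. Shares at equal depth were not computed for this cluster, so its shares and those of Flt3+ cells differ partly by depth. Scaled to all UMIs, Egfl7 was at 17.2 and 17.3 CPM there, against 283.2 and 369.5 CPM in Flt3+ Il2ra- cells. Intervals here cover counting error only. Of all Egfl7 UMIs, 71.1% and 77.1% lay in Il2ra- cells, which were 45.7% and 52.3% of cells, and the share was 84.7% and 88.4% for Sema3d, 79.6% and 81.8% for Adgrl4 and 66.8% and 73.9% for Emp1.

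Egfl7 was detected more often in Il2ra- cells that held one of the 3 rarer genes than in those without it. After thinning, Egfl7 was detected in 55.4% and 65.6% of Il2ra- cells with Adgrl4, against 43.8% and 51.2% of Il2ra- cells without it. The share was 61.7% and 76.7% in cells with Sema3d, against 44.3% and 51.9% without, and 49.2% and 67.95% in cells with Emp1, against 44.3% and 50.9% without. At least 2 of the 4 genes were found together in 8.45% and 10.7% of Il2ra- cells. These shares are descriptions of cells that share a library.

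The clusters of the droplet cells, drawn without the 4 genes, showed where they parted from each other. Egfl7 was highest, at 276.1 and 424.4 CPM, in 1025 cells led by the interferon-stimulated genes Ifit1 and Isg15, and lowest, at 17.2 and 17.3 CPM, in the Cd3d+ Ptcra+ cluster. The interferon cluster also had the highest Flt3 of the 14 clusters, 54.1 CPM over both libraries with 29.3 CPM in the next, and Il2ra at 34.01 CPM. The interferon cluster also held 18.5% and 23.2% of Sema3d UMIs in 7.26% and 7.96% of the cells, at 8.41 and 8.44 CPM. A cluster of 65 cells led by Cd3d and H19 had higher Sema3d values, 17.98 and 11.9 CPM, from 3 and 5 UMIs. Emp1 was highest, at 28.5 and 36.9 CPM, in cells led by the mitotic genes Ccnb2 and Cenpa, apart from 30.0 CPM from 5 UMIs in the first library in the cluster of 65 cells.

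In 2 clusters the genes went separate ways. In Il2ra+ cells led by Hbb-bt and Fgf3, Egfl7 was kept at 71.01 and 77.3 CPM while Emp1 was at 1.31 and 2.83 CPM, the lowest of any cluster in both libraries. A further cluster, of 54 and 55 cells, was led by the granule genes Prtn3 and Elane. In library 1 it held the highest Adgrl4 of any cluster, 40.7 CPM from 29 UMIs, with 28.98 CPM from 13 UMIs in library 2. Egfl7 was at 80.01 and 64.7 CPM there. Emp1 was at 1.40 and 6.69 CPM from only 1 and 3 UMIs, with upper 95% bounds of 7.82 and 19.5 CPM. No UMI of Sema3d was found, which allows shares of up to 5.56% and 5.45% of the cells in this cluster. These cells held 5.47% and 1.76% of all Adgrl4 UMIs, and 1.04% and 0.310% of those of Egfl7. Among Cd3e+ cells led by Lef1 and Gzma, Emp1 was at 9.77 and 25.9 CPM and Adgrl4 at 1.30 and 1.59 CPM.

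**Figure D4:**
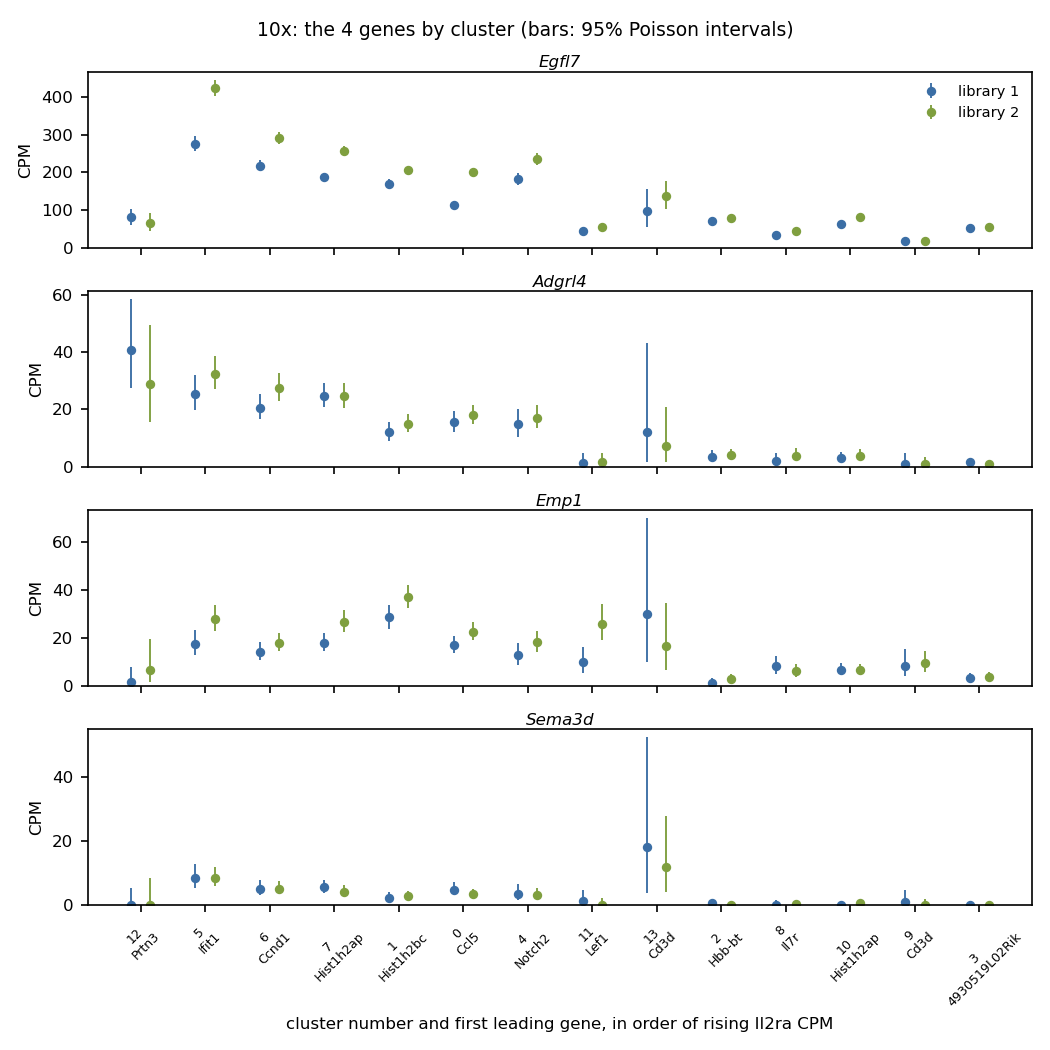
Level of each gene (CPM, both droplet libraries) in 14 clusters named by their leading genes. Egfl7 is highest in the cluster led by Ifit1 at 276.1 and 424.4 CPM. The cluster led by Prtn3 combines high Adgrl4 with low Emp1, from 1 and 3 UMIs, and no Sema3d UMI.

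The C1 cells form 1 sample, since no animals are named. The cells kept were 94 Il2ra+ Bcl11b-, 29 Il2ra+ Bcl11b+, 33 Flt3- Il2ra- and 66 Flt3+ Il2ra-. At over 1 FPKM, Adgrl4 was detected in 22 Il2ra+ cells (17.9%, exact 95% binomial interval 11.6 to 25.8), against 56 of 99 Il2ra- cells (56.6%, 46.2 to 66.5). Egfl7 was detected in 60 Il2ra+ cells (48.8%, 39.7 to 57.95) and 73 Il2ra- cells (73.7%, 63.9 to 82.1). Emp1 was detected in 11 Il2ra+ cells (8.94%, 4.55 to 15.4) and 19 Il2ra- cells (19.2%, 11.97 to 28.3), whose intervals meet. Sema3d was over 1 FPKM in 0 Il2ra+ cells, an upper bound of 2.95%, and in 9 of 99 Il2ra- cells (9.09%, 4.24 to 16.6), all 9 of which had Flt3 detected. The direction was the same in the 3 sets of library numbers except for Emp1 in the third, with 3 of 17 Il2ra+ and 2 of 18 Il2ra- cells. Exactly 2 of the genes were over 1 FPKM in 21 Il2ra+ and 40 Il2ra- cells, 3 in 1 and 12 cells, and all 4 in 0 and 2 cells.

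Since Egfl7 and Adgrl4 are best known from endothelium, its defining genes were examined in the same libraries. Of 16 such genes, 13 stayed below 1 FPKM in every bulk library, among them Cdh5, encoding VE-cadherin, at 0.029 FPKM or less, and Kdr, the VEGF receptor 2 gene, at 0.075 FPKM or less. The other 3 were low but followed the stages. Plvap, a protein of endothelial fenestrae, was at 0.814 to 3.08 FPKM in DN2a, against 2.47 to 5.02 FPKM in ETP. Robo4, a Slit receptor family member of endothelium, was at 0.006 to 0.761 FPKM in DN2a, against 0.877 to 3.68 FPKM in ETP, and Ecscr, a cell-surface regulator of endothelial movement, at 0.047 to 0.254 FPKM in DN2a, against 0.430 to 1.63 FPKM in ETP. Summed over the 16 genes, DN2a libraries were at 1.11 to 5.14 FPKM and ETP libraries at 6.11 to 10.8 FPKM. None of the 3 tested genes was called in either bulk comparison.

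In the droplet cells the 16 genes gave 280 and 395 UMIs, and the 13 genes other than Plvap, Robo4 and Ecscr, a list formed after those 3 had been seen to be present, gave 49 and 51 of them. Vwf had the most, 17 and 24 UMIs, and 4 and 5 of the genes, Cldn5, Sox17 and Tm4sf1 among them, had none. A UMI of any of the 13 was found in 1.24% and 0.681% of cells with Egfl7, against 0.632% and 0.532% of cells without it, and cells with Egfl7 were deeper, at medians of 9521 and 6782 UMIs, against 7385 and 5515 UMIs. Of 2503 and 4109 cells with Egfl7, 2 and 0 held UMIs of 2 or more of the 13 genes, and of the cells with Adgrl4, Emp1 or Sema3d none did. Of the 16 genes 4 could be tested between Il2ra+ and Il2ra- cells, and 3 fell in Il2ra+ cells: Ecscr by 2.48 ± 0.35, Robo4 by 2.19 ± 0.31 and Plvap by 0.84 ± 0.18 on the log2 scale (SE, edgeR adjusted p = 2.10e-11, 4.69e-11 and 1.07e-05). In the C1 cells Cdh5, Tie1, Cldn5, Ptprb and Tm4sf1 were over 1 FPKM in no kept cell. Plvap was over it in 31 cells, Nos3, the endothelial nitric oxide synthase gene, in 17, of which 12 had Egfl7, Robo4 in 10 and Kdr in 7. The other 7 genes were over it in 1 to 4 cells each, Tek at 91.1 FPKM in 1 cell without Egfl7.

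**Figure D5:**
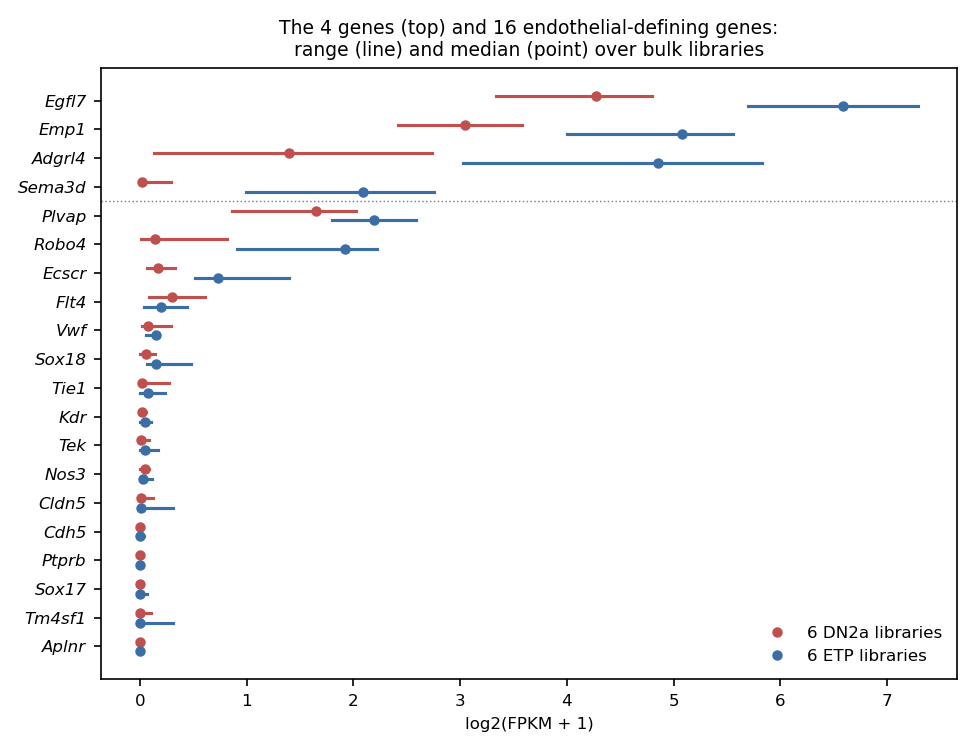
The 4 genes beside the 16 endothelium-defining genes, as log2(FPKM + 1) in DN2a and ETP bulk libraries. Of the defining genes 13 stay below 1 FPKM in every library, while Plvap reaches 5.02 FPKM and the ETP libraries of Egfl7 lie at 51.0 FPKM or more.

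Of 24 genes known in both endothelium and blood progenitors, 19 were tested in bulk; none was called between Flt3 sorts, and 3 fell in Bcl11b+ DN2a: Cd34, a progenitor sialomucin, by 1.32 ± 0.16, the transcription cofactor gene Lmo2 by 1.76 ± 0.23 and the homeobox gene Hhex by 1.01 ± 0.19 (limma adjusted p = 0.00158, 0.00181 and 0.0126). The list's medians were -0.16 between Flt3 sorts and -0.19 between DN2a sorts. In the droplet cells 19 were tested, beside a background of 20.4% of all genes called lower and 18.9% called higher. Of the 19, 15 fell in Il2ra+ cells, at -2.26 to -0.14 on the log2 scale, most in Lmo2 (-2.26 ± 0.05) and S1pr1 (-2.15 ± 0.42). Another 2 rose, Pecam1 (0.34 ± 0.04) and Ets2 (0.67 ± 0.20). The median of the list was -0.33 on the log2 scale beside -0.00278 for all genes tested. So Pecam1, the CD31 gene of endothelium and blood cells, went the other way from the 4 genes. Its level was 68.4 and 83.4 CPM in Il2ra+ cells, against 49.1 and 65.3 CPM in Il2ra- cells.

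Of 16 relatives of the 4 genes, 6 were tested in bulk and none was called between Flt3 or between Bcl11b sorts. Between the stages, DN2a minus ETP was -0.46 to -0.22 on the log2 scale for 5 of them and 0.26 for Adgrg1, beside -3.18 to -1.86 for the 4 genes. The 4 genes were chosen by this difference and their relatives were not, so the gap between them follows from the choice. Adgrg1, another adhesion receptor gene, was the most abundant at up to 395.4 FPKM, with 101.7 to 395.4 FPKM in DN2a and 106.1 to 288.6 FPKM in ETP. In the droplet cells 7 were tested, and Emp3, of the same family as Emp1, fell slightly in Il2ra+ cells (-0.31 ± 0.04 on the log2 scale). Sema3c rose by 1.64 ± 0.28 in Il2ra+ cells (edgeR adjusted p = 4.22e-08), at 3.32 and 1.77 CPM in Il2ra+ cells, against 0.832 and 0.671 CPM in Il2ra- cells, opposite to Sema3d. The medians of the family list were -0.03 and -0.02 in the Flt3 and Bcl11b comparisons and -0.21 in the droplet cells.

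Of 16 receptors and binding partners, among them neuropilins and plexins for semaphorins and the Notch receptors and integrin chains reported to bind Egfl7, 11 were tested in bulk and none was called (medians -0.26 for Flt3- minus Flt3+ ETP and -0.26 for Bcl11b+ minus Bcl11b- DN2a). Nrp1, a neuropilin, was at 0.203 to 0.519 FPKM in DN2a, against 0.621 to 2.05 FPKM in ETP, and Nrp2 at 0.630 FPKM or less. In the droplet cells 12 were tested, beside a background of 20.4% of all genes called lower and 18.9% called higher. In Il2ra+ cells Plxnc1 (-1.60 ± 0.17), Notch2 (-0.65 ± 0.06), Plxnd1 (-0.45 ± 0.17) and Plxnb2 (-0.41 ± 0.15) fell and Notch3 (1.47 ± 0.12) and Notch1 (0.32 ± 0.04) rose, with a list median of -0.14 on the log2 scale.

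Markers of other cells and stages gave the following counts. In the Flt3 and Bcl11b bulk comparisons, mesenchymal genes had 0 calls and 1 fall (Pdgfrb, -0.65 ± 0.12, up to 39.6 FPKM), with the collagen genes of series A not called, and thymic epithelial (most abundant Ly75), NK and innate (Nkg7), B-lineage (Cd79b) and dendritic (Cd74) genes had none. Megakaryocyte genes had 0 calls and 1 fall (Itga2b, -1.33 ± 0.26), the erythroid and mast-cell list 3 rises, then 1 rise (Cpa3) and 1 fall (Mcpt8), and the myeloid list 6 rises, then 1 fall (Csf1r, -1.12 ± 0.24). Of the stage lists, ETP genes had 1 fall, Flt3 itself, and then 4 falls, Cd34, Lmo2, Hhex and Mef2c. DN2a genes had 1 rise, Tcf7 (0.96 ± 0.12), and then 1 rise, Il7r (1.21 ± 0.19), and committed T-cell genes had no call and then 3 rises, Bcl11b itself, Thy1 (2.14 ± 0.33) and Cd247 (1.24 ± 0.19). Between Il2ra+ and Il2ra- droplet cells, 6 of 7 tested ETP genes fell, 5 of 5 DN2a genes and 8 of 8 committed genes rose, and 6 of 7 myeloid genes fell.

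Other lists had few tested genes in the droplet cells, where the background is 39.3% of all genes called, 18.9% higher and 20.4% lower, beside which these counts are to be read. There, 1 of 2 mesenchymal genes fell, 2 of 5 epithelial genes rose, 2 of 3 megakaryocyte genes fell and 1 rose, and 2 of 5 erythroid and mast-cell genes rose and 1 fell. Of the NK and innate genes 2 of 3 rose and 1 fell, 1 of 3 B-lineage genes rose, and of 4 dendritic genes 3 fell and 1 rose.

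The genes with the most similar courses over the 5 bulk populations differed from member to member. Likeness was the root-mean-square difference of the centred population means on the log2(FPKM + 1) scale, over 5 populations and 8492 genes (8493 for Sema3d). Egfl7 was nearest to Fam129b (0.22), S100a4 (0.22), Lgmn (0.30), Ube2l6 (0.31) and Sulf2 (0.34). Adgrl4 was less closely matched, to Lmo2 (0.36), Cd34 (0.50), Gem (0.52), Evl (0.57) and Il1r1 (0.58).

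Emp1 was nearest to Dusp6 (0.21), Gfra1 (0.24), Ifngr2 (0.24), Emb (0.25) and Havcr2 (0.29), and Sema3d to Kctd12 (0.26), Havcr2 (0.29), Il18rap (0.35), Emb (0.35) and Mef2c (0.36). Emb and Havcr2 thus stood among the 5 nearest of both Emp1 and Sema3d, while the 5 of Egfl7 and of Adgrl4 had no gene in common with those or with each other.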

How the data were processed

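Bulk RNA of 5 sorted populations was measured in 12 libraries. Per the file headers and the submitters' processing notes, the authors made the deposited FPKM values with HOMER on mm10 from reads processed with STAR 2.4.0 and RSEM 1.2.25, with edgeR 3.6.8 also named. The authors' C1 table holds FPKM per cell from RSEM, and the deposited droplet matrices hold UMI counts from Cell Ranger 2.0, per the submitters' processing notes. The 4 SMART-Seq columns were matched to their libraries by population name.

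The 4 genes and all marker lists were chosen with earlier results of these data known. Bulk values were tested on log2(FPKM + 1) with limma 3.58.1 (R 4.3.3), with a variance trend, over 12112 genes above 1 FPKM in at least 2 libraries, with population and library kit as terms. A gene was called where its p, adjusted by Benjamini-Hochberg across the genes tested, was under 0.05. Low FPKM values were whole multiples of 1 read for 97.3% to 100% of values per library (within 0.1 read, against at most 15.9% with a wrong step), which gave the reads behind each value. Same-numbered DN2a libraries deviated together from their population means (correlations 0.912, 0.930 and 0.980 across genes). These values include the kit, and after the kit term they were 0.561, 0.823 and 0.508. For the Flt3 sorts the value fell from 0.916 to 0.100. The DN2a libraries thus still varied together to a lesser degree, and the blocked values stand beside the DN2a results. The labels do not say that a number marks an animal or a day.

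Droplet cells were kept where they had 1000 genes or more and a mitochondrial share of UMIs under 10%, leaving out 27 and 427 cells for few genes and 101 and 6 for mitochondrial UMIs. Median depth was 8488.5 and 6137 UMIs. Counts summed per library and class were tested with edgeR 4.0.16 over 12171 genes. Clusters were drawn with scanpy 1.11.5 and leidenalg 0.10.2 from 2000 variable genes without the 4 genes, and no doublet caller was run. C1 cells with at least 1000 genes over 1 FPKM were kept. On simulated data with known changes, limma recovered 97% of log2 changes of 2 and 56.2% of log2 changes of 1 between Flt3 sorts, and 99.4% and 76.2% between DN2a sorts, and edgeR recovered 100% and 99.6% between Il2ra classes. False calls made up 5.66%, 5.72% and 5.95% of the calls in these simulations, above the 5% set. Alternatives were other scaling, pseudocount, filter, kit term, blocks, libraries, cell filters and DESeq2 1.42.0 for the droplet counts, with edgeR on recovered bulk reads and a fit without series A added after the data were seen. Named genes besides the 4 were the called genes of each list, up to 4 by adjusted p, the most abundant gene of each list of other cells, and the 5 most alike genes. Exceptions, chosen after their values were seen, were Cdh5, Kdr, Nrp1, Nrp2, Pecam1, S1pr1 and the other endothelial genes given by name or level. Promoter and microRNA sequences are from RefSeq, where all 4 genes matched. Figures were drawn with matplotlib 3.10.9.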

Additional observations from a re-analysis of the deposited data

How the results depend on the processing

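No direction of a member reversed under any alternative run. Bulk and droplet calls are given as a percent of the 24506 genes in the bulk table, and droplet calls also as a number of genes. The number of members among the calls is given with them. Between Flt3- and Flt3+ ETP they were 0.339% and 1 member as reported. They were 0.224% and 0 under quantile normalization, 0.208% and 0 at a pseudocount of 0.1, 0.0408% and 0 without the kit term, 0.0122% and 0 in the NEBNext libraries alone, 3.09% and 4 in a fit of the compared populations alone, and 0.200% and 0 with edgeR on recovered reads, an alternative chosen after seeing the data. Without series A, likewise chosen after seeing the data, they were 2.21% and 3. The share of calls higher in Flt3- ETP was 61.4% as reported and 90.9% under quantile normalization. With the replicate block the calls were 0.0449% and 0, and with the series of library numbers as the block 2.399% and 3. Leaving out 1 library gave 0.0571% to 6.55% and 0 to 3 members, the most without replicate 2 of Flt3- ETP. With 2 pairs, the numbers of the Flt3 sorts are not shown to pair the libraries.

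Between Bcl11b+ and Bcl11b- DN2a the calls were 1.38% and 1 member as reported. They were 0.469% and 0 with no filter on low genes, 0.0163% and 0 without the kit term, 0.175% and 0 in the NEBNext libraries alone and 0.681% in a fit of the compared populations alone. The replicate block gave 0.0979% and 0, and the series of library numbers as the block 2.78% and 2. Without series A they were 4.86% and 2. Leaving out 1 library gave 0.653% to 1.04% and 1 member throughout.

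The median DN2a minus ETP difference of the 4 genes was -3.21 with a pseudocount of 0.1. Between Il2ra+ and Il2ra- droplet cells the calls were 4789 genes (19.5%) as reported. They were 3102 (12.7%) when Il2ra+ cells were set against Flt3+ Il2ra- cells, 2890 (11.8%) after thinning and 1394 (5.69%) with DESeq2. These percents have the 24506 genes of the bulk table as their base, not the 27998 of the droplet libraries. Of the 12171 droplet genes tested, the reported calls were 39.3%. All 4 members were called in each of 7 alternatives tested. The cause of these changes was not tested. Depth limits Sema3d most: in DN2a it rests on at most 52 reads a library, and in Il2ra+ droplet cells on 19 and 16 UMIs.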
